A study of Mus musculus with 6 samples.

Results

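The 10 genes described here are germline genes whose promoters are silenced by DNA methylation in somatic cells: Dazl, Ddx4, Stra8, Mael, Asz1, Sycp1, Sycp3, Hormad1, Taf7l and Tex101. They were chosen by name, with earlier results of these data known, and found by Ensembl identifier. All 10 were present among the 43309 genes of the deposited table and among the 16823 genes tested (at least 10 fragments in at least 1 library). The table holds fragments per gene from 6 poly(A)-selected, stranded TruSeq mRNA libraries of mESCs, the pluripotent stem cells of the mouse embryo grown as lines, of strain J1 (129SV). Each library was made from 2 μg of total RNA with 8 PCR cycles, and the cells grew in medium with serum, on gelatin and free of feeder cells. The 3 control clones are labelled Zbtb24 wild-type (2lox/+), by the usual reading of the symbols a loxP-flanked and an unmodified allele. The other 3 lines are labelled Zbtb24 knockout (1lox/1lox), by the same reading the recombined allele on both chromosomes. Every line is a clone and gave 1 library. The p-values rest on counting error and on a spread between these clones that the fit estimates largely from all genes together. How recombination was induced is not given in the sources used here.

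The targeted gene went against its label at the level of the whole gene. Zbtb24 was counted in 489 to 512 fragments in the control libraries and in 888 to 1039 in the knockout-labelled ones, a log2 fold change of 0.99 (SE 0.05, edgeR quasi-likelihood adjusted p = 4.47e-23). The table does not resolve exons, and the group is therefore called the knockout-labelled libraries. Library totals ranged from 25042261 to 28838924 counts. Of the pluripotency markers Pou5f1, Nanog, Sox2, Esrrb, Zfp42, Klf4, Tdgf1, Utf1, Lin28a and Dppa5a, all 10 had at least 1852 fragments in every library. Their summed level was 5503 to 5605 CPM (counts per 1000000 fragments, scaled by TMM) in the control libraries and 6738 to 6800 in the knockout-labelled ones.

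Germline genes of this kind are switched on in primordial germ cells once DNA methylation has been erased, and are closed again by de novo methylation when the embryo implants. Mouse embryonic stem cells stand near that step and transcribe many of them at low levels. Before or beside methylation they are held down by the polycomb complex PRC1.6, in which the MGA and MAX pair binds the E-box CACGTG and E2F6 binds the letters GCGGGA, and by histone H3 lysine 9 methyltransferases. Among the 10 genes, Dazl, Ddx4 and Stra8 act in germ cell identity and the start of meiosis, Mael and Asz1 in transposon silencing by piRNAs, Sycp1, Sycp3 and Hormad1 in the meiotic chromosome axis and its pairing, and Taf7l and Tex101 in the development of sperm.

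The promoter sequences were examined first, since the repressors above read them. RefSeq windows of 300 bases (GRCm38.p6, 250 before to 50 after the annotated start) were found for all 10 genes. The palindromic E-box CACGTG was present in 6 of the 10 windows, against 7.24% of the windows of 27025 genes and 11.4% of the 9939 windows whose CpG observed over expected was at least 0.6. The stretches below carry it, each with 30 bases on the strand of the gene, 5′ to 3′, and with the E-box in capitals. Where a window held more than 1 E-box, the stretch nearest to the start is shown.
Ddx4 (chr13:112652322-112652351, minus strand): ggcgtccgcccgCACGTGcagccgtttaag
Mael (chr1:166238950-166238979, minus strand): taccaggcctacCACGTGacaatccccgcc
Sycp1 (chr3:102936177-102936206, minus strand): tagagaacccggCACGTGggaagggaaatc
Sycp3 (chr10:88459532-88459561, plus strand): acgggcatggagCACGTGctaggaggcggg
Taf7l (chrX:134476522-134476551, minus strand): accctcttatacCACGTGacagaactcgcc
Hormad1 (chr3:95559645-95559674, plus strand): atgcgcactgcgCACGTGctgaccggagcg

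Counted from the RefSeq start, the first base of the E-box shown was at -29 in Ddx4, -223 in Mael, -94 in Sycp1, -43 in Sycp3, -49 in Taf7l and -20 in Hormad1. Sycp3 and Hormad1 each held 2 E-boxes. The E2F letters GCGGGA, on either strand (TCCCGC), were present in 5 of the 10 windows, against 20% of all windows and 42.9% of those with a CpG observed over expected of at least 0.6. The 5 genes with these letters were among the 6 with an E-box, and Taf7l was the gene with an E-box alone. Both sets of letters together were present in 2.05% of all windows and in 4.80% of the CpG-rich ones. The stretches nearest to the start are shown with the E2F letters in capitals, since they are the counterpart of the E-box in the same repressor complex.
Ddx4 (chr13:112652429-112652458, minus strand): tccgtccatgggGCGGGAagtcgcgcgccg
Mael (chr1:166238716-166238745, minus strand): cggttactaaggGCGGGAgcccggcaaggg
Sycp1 (chr3:102936081-102936110, minus strand): ccagcctcccagTCCCGCgagttctcgggc
Sycp3 (chr10:88459428-88459457, plus strand): aaggaaggaacaGCGGGAaagtgctgcttc
Hormad1 (chr3:95559570-95559599, plus strand): gcgcagcttttgGCGGGAatagtggtctgg

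The windows of Dazl, Stra8, Tex101 and Asz1 held neither set of letters. CAGGACCT, the recognition sequence described for ZBTB24, was found on neither strand in any of the 10 windows and in 1.96% of all windows. A match is a description of letters and not of binding, and an absent match says only that these letters are not in this window. The windows were rich in CpG, the dinucleotide that is methylated. They held 10 to 38 CpGs with a median of 20, whereas all windows had a median of 7 and an upper quartile of 21. CpG observed over expected was at least 0.6 in 9 of the 10, against 36.8% of all windows, and ranged from 0.43 in Stra8 to 1.03 in Taf7l. For Stra8 and Tex101 the RefSeq start lay 785 and 4625 bases downstream of the 5′ end of the gene in GENCODE M21, so that their windows may not cover the promoter in use. For the other 8 genes the distance was at most 165 bases. DNA methylation itself was not measured in these libraries.

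**Figure D1:**
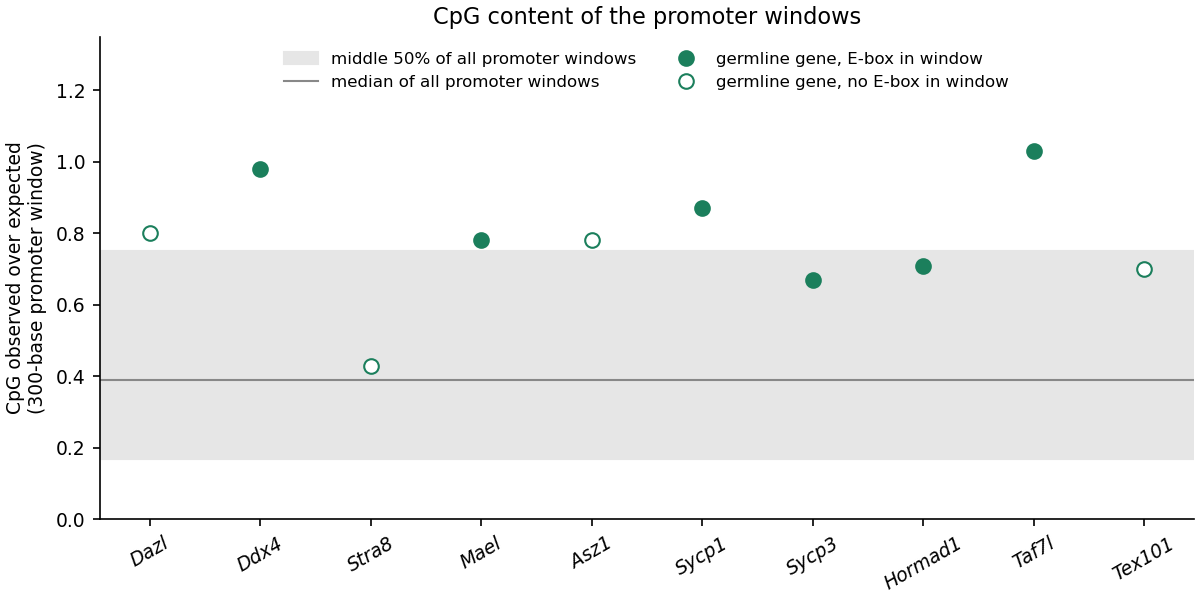
CpG observed over expected (vertical axis, no unit) in the 300-base promoter window of each of the 10 germline genes. Filled points have an E-box in the window and open points have none, the band spans the middle 50% of 27025 windows (0.17 to 0.75) and the line is their median (0.39). Stra8 lies lowest at 0.43 and Taf7l highest at 1.03.

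Expression of the 10 genes moved in both directions. Of the 10, 9 differed between the groups with an adjusted p (false discovery rate, FDR) no higher than 0.05, 5 of them higher (Stra8, Asz1, Sycp1, Dazl and Hormad1) and 4 lower (Tex101, Taf7l, Sycp3 and Mael), and Ddx4 was not called. Of all genes tested, 69.5% were called, 34.4% higher and 35.2% lower, so that a called gene is the common case in this comparison. The median log2 fold change of the 10 genes was 0.37, and that of all genes tested was 0.00. None of the 10 lay near 0.37, since the values on either side of it were Ddx4 at -0.06 and Hormad1 at 0.80. The median absolute log2 fold change of the 10 genes was 0.81, beside 0.34 over all genes tested. A log2 fold change of 1 or more in size was reached by Stra8, Asz1 and Tex101, 3 of the 10, against 17.0% of the genes tested. The groups did not overlap in 9 of the 10 genes, and in 71.5% of all genes tested. The libraries are of bulk cells, in which fewer cells that express a gene and less RNA per cell cannot be told apart.

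**Figure D2:**
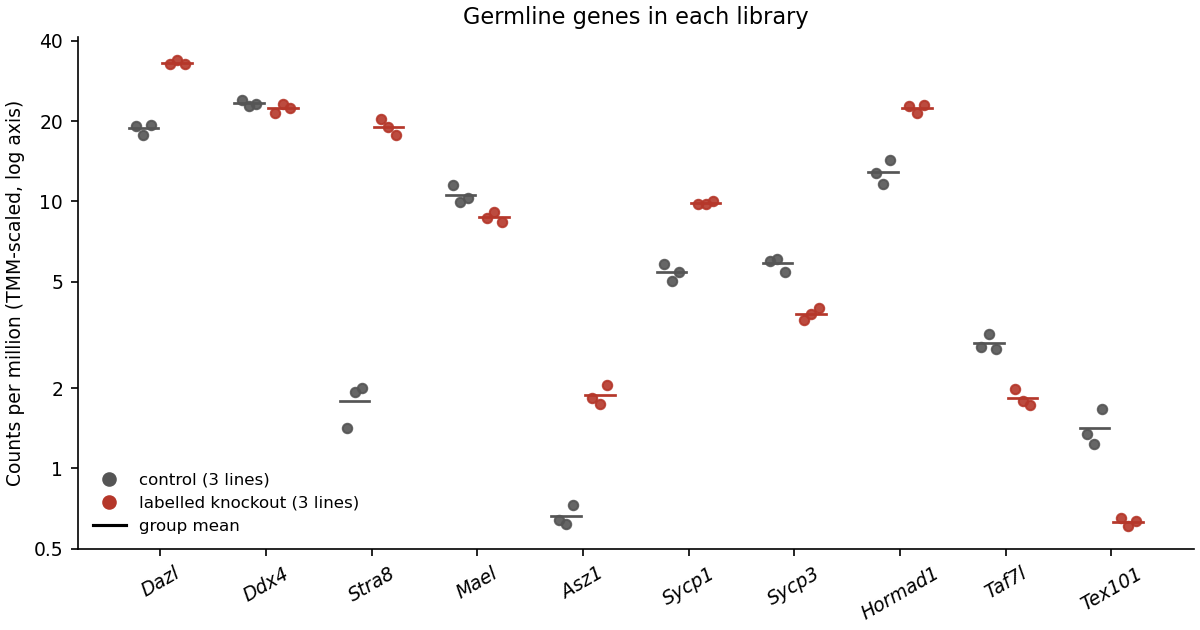
Level of each of the 10 germline genes in each library, as TMM-scaled CPM on a log axis, with grey points for the 3 control libraries, red points for the 3 labelled knockout and bars for the group means. The groups overlap in Ddx4 and stand apart in the other 9 genes, and the gap is widest in Stra8, at 1.42 to 2.00 CPM against 17.7 to 20.3 CPM.

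Stra8 (ENSMUSG00000029848, chr6:34920163-34939344 on the plus strand of mm10, protein coding), which is induced by retinoic acid and needed for entry into meiosis, rose most. It was counted in 40, 53 and 55 fragments in the control clones, and its counts were 530, 469 and 499 in the knockout-labelled clones. Every library labelled knockout was far above every control library. The control level was 1.78 ± 0.32 CPM and the knockout-labelled level 19.0 ± 1.31 CPM (SD, n = 3 each). This was a 10.6-fold difference, or a log2 fold change of 3.41 (SE 0.10, 95% confidence interval 3.21 to 3.61, edgeR quasi-likelihood p of 2.00e-32 after Benjamini-Hochberg adjustment over 16823 genes). Its absolute log2 fold change exceeded that of 98.2% of the genes tested. Stra8 took 2.14% ± 0.42 of the fragments of the 10 genes in the control libraries and 15.4% ± 0.99 in the knockout-labelled ones (SD, n = 3 each).

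Dazl (ENSMUSG00000010592, chr17:50279395-50293636, minus strand, protein coding) encodes an RNA-binding protein that germ cells need to form gametes. Its counts were 542, 486 and 533 in the control clones and 853, 834 and 923 in the knockout-labelled clones. The groups did not overlap, with 18.8 ± 0.96 CPM against 33.1 ± 0.69 CPM (SD, n = 3 each). Dazl was thus 1.76-fold higher in the knockout-labelled libraries, a log2 fold change of 0.81 (SE 0.05, adjusted p = 7.05e-20). Ddx4 (ENSMUSG00000021758, chr13:112598333-112652475, minus strand, protein coding), the RNA helicase of germ granules also known as Vasa, was the gene of the 10 with overlapping groups. Its counts were 676, 625 and 636 in the control clones and 561, 569 and 635 in the knockout-labelled clones, or 23.3 ± 0.65 and 22.4 ± 0.82 CPM (SD, n = 3 each). The log2 fold change of Ddx4 was -0.06 (SE 0.05, adjusted p = 0.291), and its 95% confidence interval ran from -0.16 to 0.04.

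The piRNA genes Mael and Asz1 differed in direction. Asz1 (ENSMUSG00000010796, chr6:18050964-18109061, minus strand, protein coding), a scaffold protein of the piRNA granules between mitochondria, had the fewest fragments of the 10 genes in the control clones, with 18, 17 and 20. It had 48, 43 and 58 in the knockout-labelled clones. Its level rose 2.84-fold from 0.66 ± 0.06 to 1.88 ± 0.16 CPM (SD, n = 3 each), a log2 fold change of 1.504 (SE 0.21, 95% confidence interval 1.08 to 1.93, adjusted p = 2.25e-08). The groups did not overlap, and the wide interval goes with the low counts. Mael (ENSMUSG00000040629, chr1:166201201-166238747, minus strand, protein coding), needed for transposon silencing in the testis, fell slightly. Its counts were 325, 273 and 282 in the control clones and 227, 224 and 236 in the knockout-labelled clones. The lowest control library, at 9.93 CPM, stood above the highest library labelled knockout, at 9.10 CPM. The log2 fold change of Mael was -0.28 (SE 0.08, adjusted p = 0.0014).

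Of the genes of the meiotic chromosome axis and its pairing, Sycp1 and Hormad1 rose and Sycp3 fell. Sycp1 (ENSMUSG00000027855, chr3:102818499-102936100, minus strand, protein coding) encodes the transverse filament that joins paired chromosomes in the synaptonemal complex. It was counted in 164, 139 and 150 fragments in the control clones and in 255, 242 and 283 in the knockout-labelled clones. At 5.45 ± 0.38 against 9.87 ± 0.14 CPM (SD, n = 3 each) the groups were well apart, and the log2 fold change was 0.86 (SE 0.09, adjusted p = 2.06e-12). Hormad1 (ENSMUSG00000028109, chr3:95559677-95587671, plus strand, protein coding), a HORMA domain protein of unpaired chromosome axes, was counted in 360, 319 and 392 fragments in the control clones. It had 596, 529 and 648 in the knockout-labelled clones, all above the control libraries. The log2 fold change of Hormad1 was 0.80 (SE 0.06, adjusted p = 3.96e-16), a 1.74-fold rise from 12.9 ± 1.34 to 22.4 ± 0.81 CPM (SD, n = 3 each). Sycp3 (ENSMUSG00000020059, chr10:88459569-88473236, plus strand, protein coding), which forms the lateral elements of the same complex, was counted in 169, 168 and 150 fragments in the control clones and in 94, 93 and 113 in the knockout-labelled clones. It fell from 5.86 ± 0.35 to 3.79 ± 0.20 CPM (SD, n = 3 each), with a log2 fold change of -0.63 (SE 0.11, adjusted p = 1.12e-06) and no overlap between the groups. Sycp3 overlaps the coding gene Chpt1 on the opposite strand, and the counting used the strand.

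Taf7l and Tex101 fell as well. Taf7l (ENSMUSG00000009596, chrX:134460118-134476490, minus strand, protein coding) is a germ cell relative of the general transcription factor subunit TAF7. It had 80, 88 and 77 fragments in the control clones and 52, 44 and 49 in the knockout-labelled clones. The groups stood apart at 2.95 ± 0.22 and 1.84 ± 0.14 CPM (SD, n = 3 each), a log2 fold change of -0.68 (SE 0.15, adjusted p = 6.55e-05). Tex101 (ENSMUSG00000062773, chr7:24668007-24676675, minus strand, protein coding), a surface protein of germ cells required for sperm fertility, had 38, 34 and 46 fragments in the control clones and 17, 15 and 18 in the knockout-labelled clones. Its level was 1.42 ± 0.23 CPM in the control libraries and 0.63 ± 0.02 CPM in the knockout-labelled ones (SD, n = 3 each), 2.23-fold lower. The log2 fold change of Tex101 was -1.16 (SE 0.24, 95% confidence interval -1.63 to -0.69, adjusted p = 2.55e-05), and the groups did not overlap.

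Summed over the 10 genes, the level was 83.7 ± 3.10 CPM in the control libraries and 123.5 ± 0.86 CPM in the knockout-labelled ones (SD, n = 3 each). Without Stra8 the sums were 81.9 ± 3.26 and 104.6 ± 0.95 CPM. Between lines of a group, the relative SD of a gene was 1.37% to 17.7%, beside a counting error of 3.39% to 24.5% for a single library. It was often below the counting error, as for Sycp1 in the knockout-labelled libraries (1.37% against 6.2%). In other cases it was above, as for Stra8 in the control libraries (17.7% against 14.2%). The spread between clones is thus poorly resolved for many of these values. Genes with an E-box in the window were found on both sides. These 6 genes included 2 that rose (Sycp1 and Hormad1), 3 that fell (Mael, Sycp3 and Taf7l) and Ddx4. The 4 without it included 3 that rose (Dazl, Stra8 and Asz1) and Tex101, which fell. For Stra8 and Tex101 the window may not cover the promoter in use, so their place among the genes without an E-box is uncertain.

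The genes lie on 8 chromosomes, and the shift of their surroundings was compared with their own. The median log2 fold change of the chromosome, over its genes with 10 or more counts on average, lay between -0.07 and 0.16 for 9 of the 10 genes. The exception was Mael on chromosome 1, whose 980 genes had a median of 0.50. Relative to that median, the log2 fold change of Mael was -0.78 in place of -0.28. Within 1 Mb of Mael, 17 other genes were tested, with a median of 0.40, and 9 were higher and 3 lower. Of the nearest tested neighbours of Mael, Gpa33 was lower with a log2 fold change of -0.84, and Ildr2, at -0.17, was not called. For Stra8 the 18 genes tested within 1 Mb had a median of -0.02 and a highest value of 1.13, well under its 3.41. Its nearest tested neighbours, Wdr91 and Slc23a4, had log2 fold changes of 0.27 and -0.85. Asz1 rose beside neighbours of which 7 of 11 were lower and 2 higher, with a median of -0.61. Both of these genes are on chromosome 6. Tex101 fell together with its nearest tested neighbours Phldb3 (-1.43) and Ceacam10 (-1.17), while the 52 genes within 1 Mb had a median of -0.01.

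**Figure D3:**
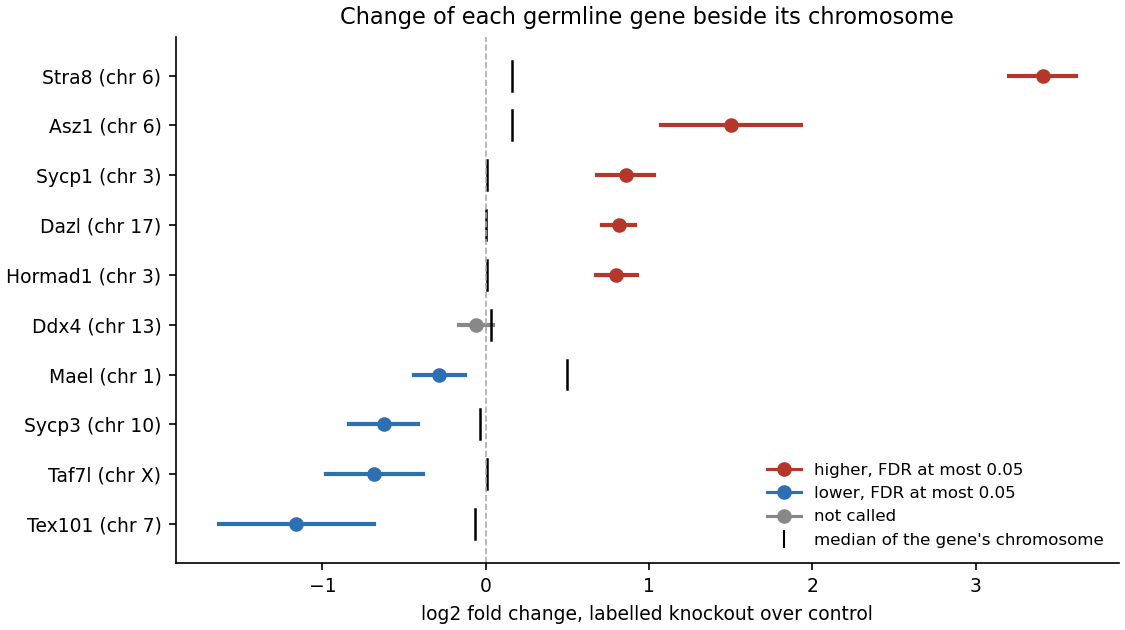
Log2 fold change of the 10 germline genes, knockout-labelled libraries over control (horizontal axis), with 95% confidence intervals, red where higher, blue where lower and grey where not called. Black ticks mark the median of the chromosome of each gene, which is near 0 for most and 0.50 for Mael on chromosome 1.

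Levels of different genes were compared as CPM per kilobase of the longest annotated transcript. In the control libraries Hormad1 came first at 8.53 ± 0.88 CPM per kb, followed by Ddx4 at 7.74 ± 0.22, Dazl at 6.31 ± 0.32, Mael at 6.26 ± 0.50 and Sycp3 at 5.01 ± 0.30 (SD, n = 3 each). The next 4 genes, Sycp1, Taf7l, Tex101 and Stra8, lay between 1.58 and 0.99, and Asz1 was last at 0.28 ± 0.02. Hormad1 overlapped Ddx4, Dazl overlapped Mael, Sycp1 overlapped Taf7l and Tex101 overlapped Stra8 across libraries, and the other neighbours in this order did not overlap. In the knockout-labelled libraries the order was Hormad1 (14.8 ± 0.54), Dazl (11.1 ± 0.23), Stra8 (10.5 ± 0.73), Ddx4 (7.42 ± 0.27), Mael (5.15 ± 0.22), Sycp3 (3.24 ± 0.17), Sycp1 (2.87 ± 0.04), Taf7l (0.95 ± 0.07), Asz1 (0.80 ± 0.07) and Tex101 (0.52 ± 0.02), in CPM per kb (SD, n = 3 each). Dazl and Stra8 were the only neighbours in that order to overlap. Stra8 moved from the ninth to the third place. Among 16706 genes tested with a known length, Stra8 stood above 28.1% in the control libraries and above 66.0% in the knockout-labelled ones, and Asz1 above 13.1% and 27.2%. Hormad1, the highest of the 10, stood above 61.9% and 72.9%.

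Other germline genes were described by 4 lists. The lists were chosen with earlier results of these data known, so their contrast with all genes tested is a description only. Of 87 genes listed 86 were in the table and 75 were tested, of which 39 were higher, 20 lower and 16 not called. The called share was 78.7%, beside 69.5% over all genes tested, and the median log2 fold change was 0.32. With a log2 fold change of 1 or more in size required, 17 were higher and 4 lower, beside 877 higher and 1987 lower of all 16823 genes tested. The promoter windows of 68 of these genes were found, of which 16 (23.5%) held an E-box and 26 (38.2%) the E2F letters.

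**Figure D4:**
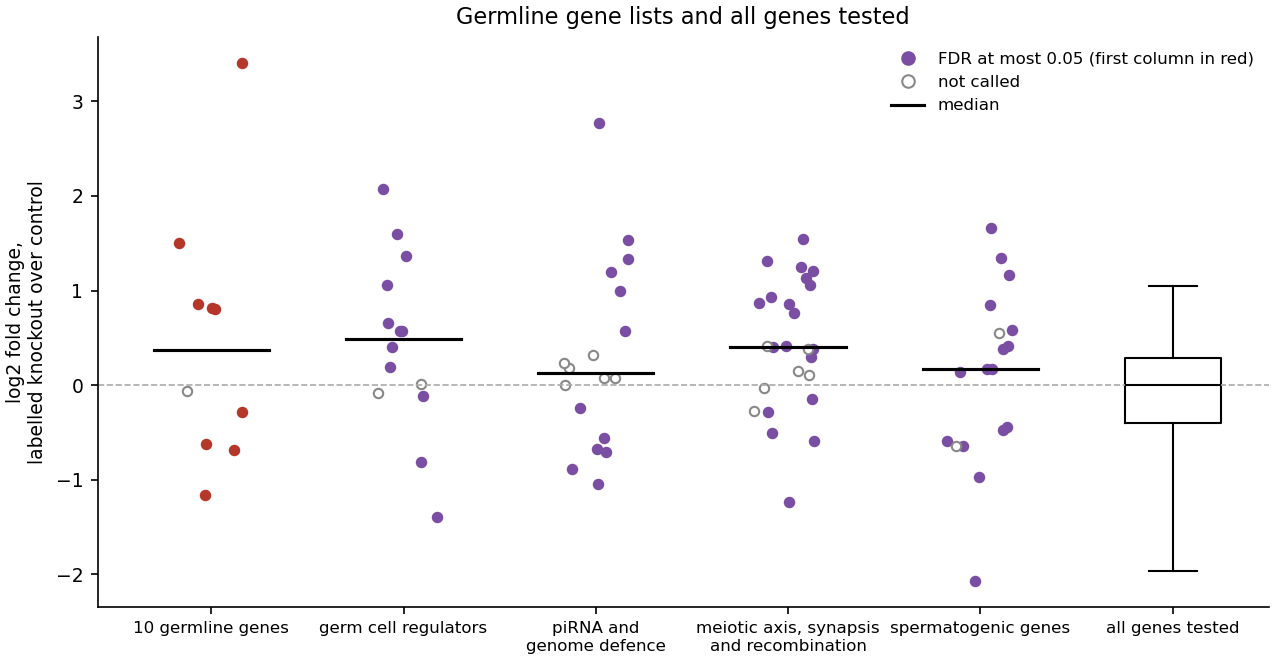
Log2 fold change, knockout-labelled libraries over control (vertical axis), of the 10 germline genes and the tested genes of 4 germline lists, with filled points at an FDR of at most 0.05, open points not called and bars at the medians. The box at the right shows all 16823 genes tested (middle 50%, median, whiskers from the 5th to the 95th percentile). The medians are 0.37, 0.49, 0.13, 0.41 and 0.17, and 0.00 for all genes.

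Among the germ cell regulators, transcription factors and RNA-binding proteins that make or keep the germ line, 9 of the 14 tested were higher, 3 lower and 2 not called, with a median log2 fold change of 0.49. Their called share was 85.7%, beside 69.5% over all genes tested. Sohlh2, a helix-loop-helix factor of early gamete development, rose from 348 to 429 control fragments to 1458 to 1579 in the knockout-labelled libraries (log2 fold change 2.07, SE 0.05). Kit, the receptor that germ cells and other stem cells need to survive, rose from 1327 to 1411 fragments to 3714 to 4178 (1.596, SE 0.03). Prdm14, which specifies primordial germ cells and also holds embryonic stem cells in the naive state, rose with a log2 fold change of 1.36 (SE 0.05), on chromosome 1 with its median of 0.50. Meioc, a gene of the early meiotic programme, rose by 1.06 (SE 0.05). Gm4969, the gene of the STRA8 partner MEIOSIN, fell from 43 to 50 fragments to 14 to 20, with a log2 fold change of -1.39 (SE 0.23). Stra8 and the gene of its partner therefore changed in opposite directions in the same libraries.

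In the piRNA and genome defence list 6 of the 18 tested were higher, 6 lower and 6 not called, with a median log2 fold change of 0.13. The called share of this list was 66.7%, beside 69.5% over all genes tested. All 3 PIWI genes, which encode the proteins that carry piRNAs, were higher. Piwil4 rose from 73 to 78 control fragments to 457 to 517 in the knockout-labelled libraries (log2 fold change 2.77, SE 0.09), Piwil1 from 21 to 32 to 63 to 66 (1.33, SE 0.18) and Piwil2 from 582 to 667 to 1241 to 1469 (1.198, SE 0.05). Tdrd5, a tudor domain protein of the germ granule, rose by 1.53 (SE 0.07) on chromosome 1. Fkbp6, a co-chaperone of piRNA loading, fell with a log2 fold change of -1.05 (SE 0.10).

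For the meiotic axis, synapsis and recombination list, 14 of the 25 tested were higher, 5 lower and 6 not called, with a median log2 fold change of 0.41. The called share of this list was 76.0%, beside 69.5% over all genes tested. Hfm1, a helicase of meiotic crossovers, rose from 52 to 62 fragments to 142 to 189 (log2 fold change 1.54, SE 0.12). Dmc1, the meiotic strand exchange recombinase, rose from 170 to 173 fragments to 375 to 451 (1.31, SE 0.08). Smc1b, the meiotic cohesin subunit, had a log2 fold change of 1.25 (SE 0.05), and Rec114, which acts in meiotic break formation, had 1.21 (SE 0.07). Syce3, a central element protein that binds SYCP1, fell from 25 to 34 fragments to 6 to 14, with a log2 fold change of -1.24 (SE 0.30). In the spermatogenic list 10 of the 18 tested were higher, 6 lower and 2 not called, with a median of 0.17 and a called share of 88.9%. Rhox13, an X-linked homeobox gene, rose by 1.67 (SE 0.10), Tex14, a protein of the bridges between germ cells, by 1.34 (SE 0.04), and the testis tubulin Tuba3a by 1.16 (SE 0.05), all as log2 fold changes. Tuba3a has a near-identical copy, and fragments mapped to more than 1 place had been discarded, so its counts are uncertain. Dpep3, a dipeptidase of the testis that forms a complex with TEX101, fell with a log2 fold change of -2.07 (SE 0.43). Its counts were 16, 21 and 26 in the control clones and 2, 1 and 11 in the knockout-labelled clones, with line 3 apart from the other two. Tktl1, a transketolase-like gene, had a log2 fold change of -0.97 (SE 0.17).

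Genes of the DNA methylation machinery went in both directions. Of the 12 genes reported 3 were higher, 7 lower and 2 not called, a called share of 83.3% beside 69.5% of all genes tested, with a median log2 fold change of -0.27. Dnmt3b, a de novo DNA methyltransferase, fell most, from 12507, 11504 and 11797 fragments in the control clones to 2590, 2575 and 2923 in the knockout-labelled clones (log2 fold change -2.07, SE 0.03, adjusted p = 7.41e-47). Its level of 431 ± 12.9 CPM in the control libraries and 102 ± 2.87 CPM in the knockout-labelled ones (SD, n = 3 each) left no overlap. Dnmt3l, the cofactor of de novo methylation, fell with a log2 fold change of -0.94 (SE 0.03), and Dnmt3a, the other de novo enzyme, with -0.33 (SE 0.03). The maintenance genes Dnmt1 and Uhrf1 were not called, at 0.04 (SE 0.02, adjusted p = 0.0937) and -0.05 (SE 0.02, adjusted p = 0.0789). Tet2, which oxidises methylated cytosine, rose from 3017 to 3353 fragments to 6749 to 7454 (1.23, SE 0.03), while Tet1 rose by 0.14 (SE 0.02) and Tet3 fell with -0.39 (SE 0.06). Among proteins that bind methylated DNA, Mbd2 fell with a log2 fold change of -0.54 (SE 0.07), Zbtb4 with -0.998 (SE 0.21) and Zbtb38 with -0.20 (SE 0.05), and Mbd1 rose by 0.28 (SE 0.06). Whether methylation of the 10 promoters differed between the lines was not tested.

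The PRC1.6 and histone repressor list held smaller changes. Of its 22 genes 9 were higher, 9 lower and 4 not called, a called share of 81.8% beside 69.5% of all genes tested. No absolute log2 fold change reached 1, and the median was 0.01. Rnf2, a ubiquitin ligase of the polycomb complexes, had the largest rise at 0.75 (SE 0.03), on chromosome 1 with its median of 0.50. Tfdp1, the partner of E2F factors, fell with -0.74 (SE 0.02), on chromosome 8 with a median of -0.20. Ehmt1, a histone H3 lysine 9 methyltransferase, fell with -0.53 (SE 0.03) and L3mbtl2, a PRC1.6 subunit, with -0.51 (SE 0.03). Hdac1, a histone deacetylase, rose by 0.32 (SE 0.02). The genes of MGA, MAX and E2F6, named above as binding the printed letters, moved less than Tfdp1, the partner of E2F factors. Mga, which reads the E-box with Max, was at 0.02 (SE 0.03) and not called, Max rose by 0.17 (SE 0.03) and E2f6 rose by 0.19 (SE 0.05).

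**Figure D5:**
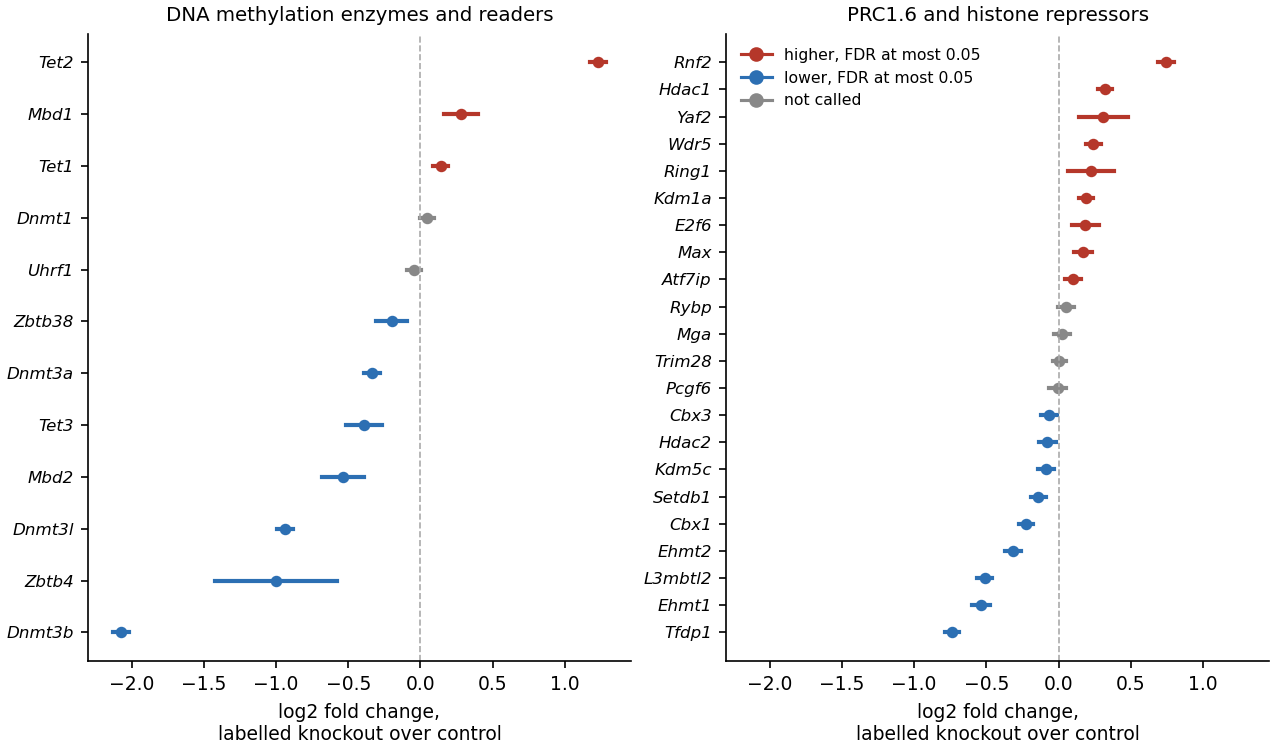
Log2 fold change with its 95% confidence interval, knockout-labelled libraries over control (horizontal axes), of 12 DNA methylation enzymes and readers and of 22 PRC1.6 and histone repressor genes, red where higher, blue where lower and grey where not called. Dnmt3b lies lowest at -2.07 and Tet2 highest at 1.23, and the repressor genes lie between -0.74 and 0.75.

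Markers of other cells moved with the groups, and their part in the results above was not tested. Of all genes tested 69.5% were called, so a called marker is the common case here. Several of the 2-cell-like markers are near-identical copies, whose counts are uncertain. All 7 markers of 2-cell-like cells, a rare state of embryonic stem cell cultures, were lower in the knockout-labelled libraries, with a summed level of 54.0 to 55.9 CPM in the control libraries and 2.12 to 2.52 CPM in the knockout-labelled ones. Their lowest log2 fold change was in Zscan4c (-4.93) and their highest in Usp17lc (-3.90). Of 8 fibroblast markers 7 were tested and 6 were lower, with sums of 60.0 to 62.5 and 12.4 to 13.0 CPM, and Lum was at 0 counts in every library. Their lowest gene, Postn, had 7, 8 and 11 fragments in the control clones and 0 in each knockout-labelled clone, and their highest, Pdgfrb, was at -0.16 (SE 0.13) and not called. Primitive endoderm markers summed to 5.72 to 6.33 and 5.28 to 6.98 CPM, with 1 of 6 higher (Sox7, 1.24, SE 0.17) and 3 lower, the lowest being Foxa2 (-1.99, SE 0.72). Gonadal somatic markers, which would come with germ cells from a gonad, summed to 3.93 to 4.29 and 2.76 to 3.37 CPM, with 1 of the 4 tested called (Sox9, -2.17, SE 0.49), Insl3 highest at 0.37 (SE 0.32, not called) and Fshr at 0 counts in every library. The pluripotency markers, whose sums are given above, were all called, 8 of the 10 higher and 2 lower. Klf4 (1.90, SE 0.03), Esrrb (1.16, SE 0.02) and Nanog (1.13, SE 0.02) rose most, and Zfp42 (-0.77, SE 0.02) and Lin28a (-0.44, SE 0.02) fell.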

How the data were processed

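The deposited values are raw counts of fragments per gene. The authors removed rRNA reads with Bowtie2 2.1.0, mapped the rest to mm10 with TopHat2 2.0.10 and counted GENCODE M4 genes with HTSeq 0.6.1 in union mode on the sense strand, dropping fragments with several genes or places, which lowers the counts of near-identical copies. Symbols, coordinates and lengths came from GENCODE M21 on the same build (42425 of 43309 identifiers matched). Genes reaching 10 counts in any library were tested with edgeR 4.0.16 (R 4.3.3, TMM, glmQLFit, glmQLFTest, no covariate), with Benjamini-Hochberg adjustment over all 16823 genes. SE is the absolute log2 fold change divided by the square root of F. Library totals of 25042261 to 28838924 leave counting error as the least error of each value. No pair of libraries of a group agreed within sampling noise (chi-square per gene 1.14 to 2.24), so none was merged as a duplicate. This does not show that they are independent, which rests on the study calling them separate clones, and the common dispersion was low at 0.0004.

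On simulated counts of 16823 genes for this comparison, with 200 changed, the fit recovered 97% of genes changed by a log2 fold change of 2 and 87% of those changed by 1, and 4.66% of its calls were false. The simulation used the dispersions of the fit and equal numbers of rises and falls. It changed far fewer genes than the 69.5% called in the data, so these rates may not hold for the data. Alternatives were RLE scaling, library totals only, other count filters, the likelihood ratio test, DESeq2 1.42.0, the replicate number as a block and leaving out each library. Subtracting the median of the chromosome was added after the data were seen. The members and lists were chosen with earlier results of these data known, and 1 gene of the DNA methylation list is not reported here. Markers were named by their highest and lowest gene, with Esrrb, Nanog, Lin28a, Lum and Fshr added after their values were seen. Named otherwise were Zbtb24, the 10 members, the DNA methylation genes and, of each other list, at most 5 genes with the largest absolute log2 fold change among called genes averaging 10 counts or more. Mga, Max and E2f6 were named as readers of the printed letters, and nearest neighbours by position. Promoter windows came from RefSeq (GRCm38.p6). No per-library column was left without a sample.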

Additional observations from a re-analysis of the deposited data

How the results depend on the processing

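For each of the 10 genes the direction and the side of the FDR threshold were unchanged under all 14 alternatives run. The count of called genes among the 10 stayed at 9 in each of them. Of all genes tested 11698 were called, 10326 with DESeq2, and 11100 to 11330 with 1 library left out. Of the tested genes of the 6 lists, 87 were called, 73 with DESeq2 and 82 to 84 with 1 library left out. With library totals in place of TMM, 43.4% of the calls were higher in place of 49.4%, and the log2 fold change of Ddx4 was -0.11 (adjusted p = 0.0547). Its adjusted p ranged from 0.0547 to 0.619 over the alternatives. The fall of Mael is the smallest of the 9, with an adjusted p of up to 0.0228 over the alternatives. With 1 library left out its log2 fold change ranged from -0.33 to -0.22, that of Asz1 from 1.43 to 1.58 and that of Tex101 from -1.25 to -1.03. Subtracting the chromosome median, an alternative chosen after the data were seen, moved Mael to -0.78.

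Replicates are numbered in the titles alone, and no label ties clones of the same number. With the replicate number as a block, 9 of the 10 genes and 11802 genes in all were called. Deviations of libraries with the same number correlated at 0.02, 0.05 and 0.01 across genes, and not every library correlated best with its own number. Depth limits Asz1 and Tex101 most, with 15 to 58 fragments a library.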

Other observations

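The Rhox genes, a cluster of homeobox genes on the X chromosome that act in reproductive tissues, were looked at after Rhox13 had been seen to rise. Of 41 genes of that name, some of them named as pseudogenes, 9 were tested. Of these, 4 were higher in the knockout-labelled libraries, 3 lower and 2 not called, where 69.5% of all genes tested were called. The 4 higher ones include the pseudogene Rhox2-ps (log2 fold change 0.58, SE 0.25). Rhox10 rose from 24, 25 and 20 fragments in the control clones to 131, 144 and 153 in the knockout-labelled clones (log2 fold change 2.70, SE 0.15, edgeR quasi-likelihood adjusted p = 4.87e-21). Rhox6 and Rhox9 fell with log2 fold changes of -1.62 (SE 0.09) and -1.68 (SE 0.09), from 350 to 411 and 303 to 306 fragments to 109 to 132 and 83 to 96. Rhox12, with 5 to 12 fragments in the control clones, had 0 in every knockout-labelled clone. Rhox5, with the most fragments of the cluster, had 1209 to 1215 and 1178 to 1381 fragments (log2 fold change 0.14, SE 0.04). The other 32 genes had under 10 fragments in every library. Many of these are near-identical copies, and fragments that mapped to more than 1 place had been discarded, so their low counts do not show their expression.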
